A study of Mus musculus with 23 samples.

Results

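The transcripts described here are those of the mitochondrial carriers, the Slc25a solute carrier family together with the uncoupling proteins, in hindlimb muscle of mice that were flown in space or had their hindlimbs unloaded on the ground. Members were the probe sets with 1 gene symbol, either Slc25a followed by a number or Ucp1, Ucp2 or Ucp3, and for a gene with several probe sets the one with the highest mean log2 signal over the 23 arrays was taken. The rule found 35 genes among the 12393 genes measured, and 33 of them passed the filter on low signal that left 9133 genes for testing. Slc25a2, an ornithine carrier, and Slc25a24, an ATP-Mg/phosphate carrier, lay below that filter, with group means between 3.67 and 4.38 for Slc25a2 and between 4.02 and 4.28 for Slc25a24. Ucp2, Slc25a1 and Slc25a12 are not analysed here.

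All samples were bulk muscle from female C57BL/6J mice aged 77 days, hybridised to 1 Affymetrix array each. In the flight experiment, gastrocnemius muscle came from mice flown for 11 days and 19 hours (spaceflight, n = 4) and from mice kept in the animal enclosure module on the ground for the same time (ground AEM, n = 4). In the calf experiment, calf muscle came from untreated mice housed 3 per cage (control, n = 5), from mice tail-suspended at about 30 degrees for 12 days (suspension, n = 5), and from mice suspended for 12 days and then freed for 3.5 hours (reloaded, n = 5). The flight and calf experiments thus differ in the muscle sampled and in housing, and the time between landing and dissection is not given in the sources used here. Levels were therefore compared only within an experiment, and only within a probe set. For the flight experiment the free-text descriptions are exchanged relative to the titles, source names and series design, which were followed here; were the descriptions correct instead, all flight differences would change sign. The labels number the replicates without naming animals, so the p-values here reflect the spread among these arrays, part of which may be technical.

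Most proteins of the Slc25a family, though not all, are small carriers of the inner mitochondrial membrane. Such carriers move nucleotides, phosphate, organic acids, amino acids, acylcarnitines, cofactors and iron between the cytosol and the matrix. In skeletal muscle the ADP/ATP and phosphate carriers feed ATP synthase and export its product, the aspartate/glutamate and oxoglutarate carriers shuttle reducing equivalents, and the carnitine/acylcarnitine carrier admits long-chain fatty acids for oxidation. Uncoupling proteins are relatives of these carriers: Ucp1 lets protons leak back in brown fat and makes heat, whereas Ucp3 is the form of skeletal muscle, where its transcript is known to follow fatty acid supply.

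The 7 muscle fibre markers checked (Ckm, Acta1, Mb, Des, Myh4, Tnnt3 and Pvalb) had array means between 13.2 and 13.3 in all 5 groups, and 0 of the 7 were called in any comparison of 2 groups. A gene was called when its Benjamini-Hochberg adjusted p from limma, over all 9133 genes, was under 0.05. The interquartile range of the log2 values on an array was 2.75 to 2.91 in the flight experiment and 2.21 to 2.46 in the calf experiment. Suspension replicates 8 and 9 had the narrowest ranges of the calf arrays (2.209 and 2.295). They also had the lowest median correlations with other arrays (0.985 and 0.989). The number of arrays limits the precision: the median standard error of a member's log2 difference was 0.09 in each comparison of 2 groups.

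The flight comparison asks which carrier transcripts differed between flown mice and mice in the same enclosure on the ground. In the flown muscle, 4 carriers rose and 0 fell: the pyrimidine nucleotide carrier Slc25a33 (log2 difference 1.10), the ATP-Mg/phosphate carrier Slc25a25 (0.89), the muscle uncoupling protein Ucp3 (0.80) and the dicarboxylate carrier Slc25a10 (0.46). These are 12.1% of the 33 members tested, where 5.64% of all 9133 genes were called in either direction and 3.18% were called higher. The other 29 members lay between -0.21 and 0.43. The median log2 difference was 0.05 over the members and -0.01 over all genes tested, with 19 members above 0 and 14 below. At an unadjusted p under 0.05 there were 8 of the 33 members, beside 19.6% of all genes. In bulk muscle, a transcript that is lower because fewer cells of a type were present and one that is lower because each cell held less RNA cannot be told apart, and the same holds for higher values.

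**Figure D1:**
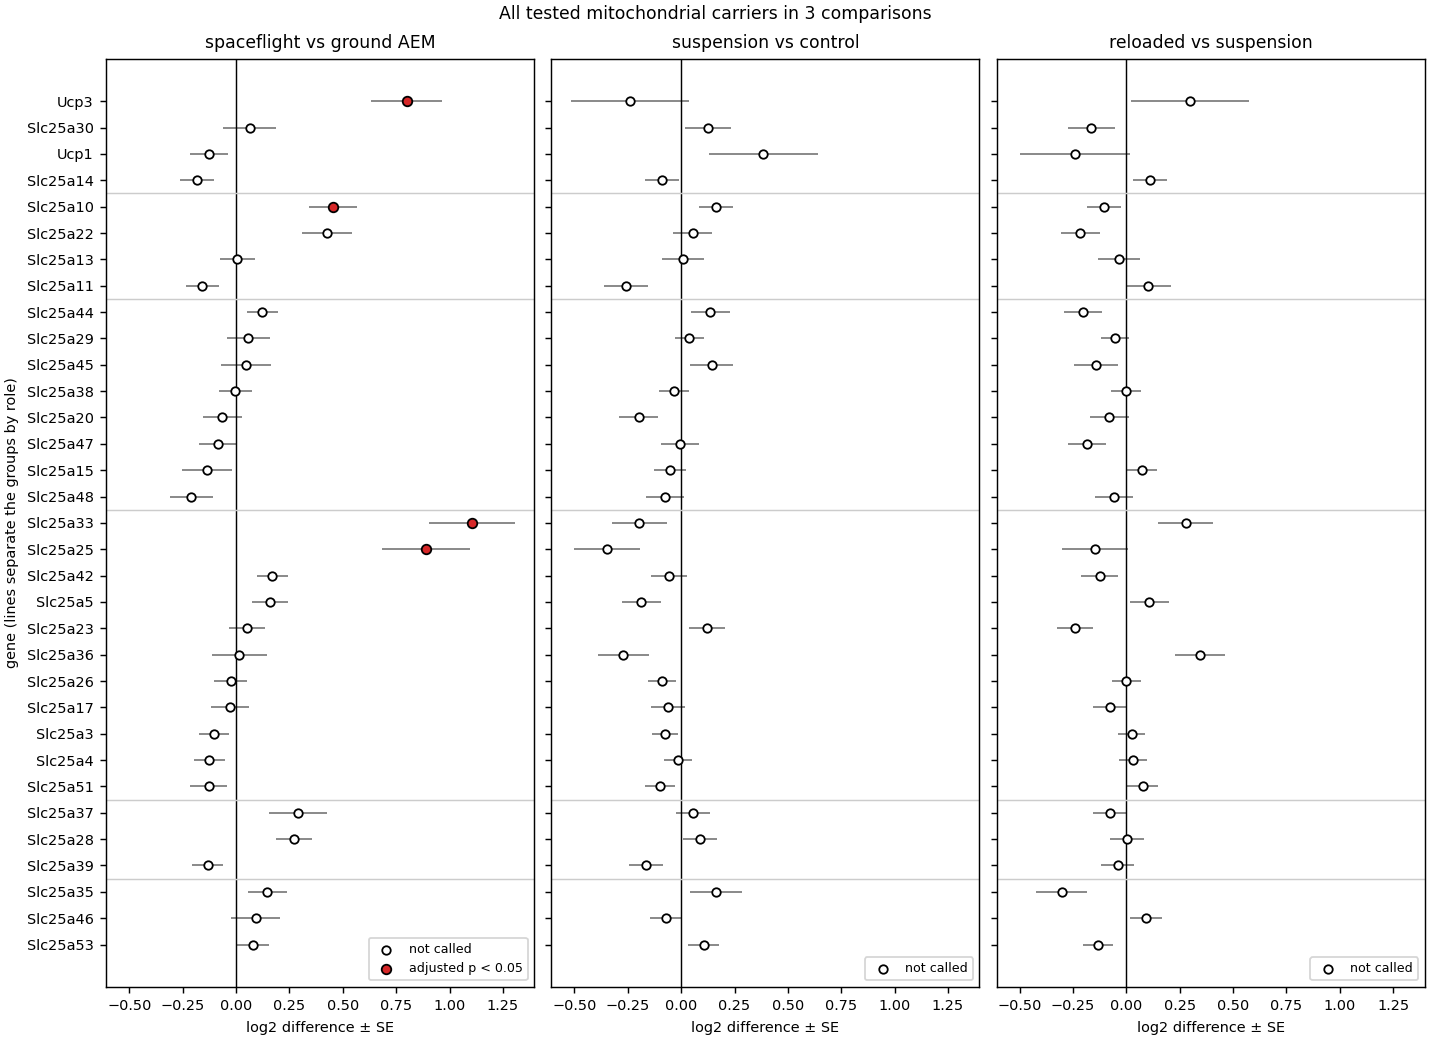
Log2 difference with its standard error (horizontal axis) for the 33 tested carriers (rows, grouped by role) in spaceflight against ground AEM, suspension against control, and reloaded against suspension; filled points passed an adjusted p under 0.05. The 4 filled points, Ucp3, Slc25a10, Slc25a33 and Slc25a25, all lie on the right of the flight panel, and 0 members are filled in the suspension and reloading panels.

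Among the uncoupling proteins and their close relatives, Ucp3 was the only one of 4 tested members called in flight. Its log2 signal was 8.80, 9.60, 9.50 and 9.49 in ground AEM replicates 1 to 4, and 10.14, 10.44, 9.82 and 10.20 in spaceflight replicates 8 to 11. Every flown sample was above every ground sample, and ground AEM replicate 1 lay lowest. The means were 9.35 ± 0.37 (SD, n = 4) on the ground and 10.15 ± 0.25 (SD, n = 4) in flight, a log2 difference of 0.80 ± 0.17 (SE; adjusted p = 0.0137, limma). A second, dimmer Ucp3 probe set had values of 8.50, 9.33, 9.54 and 9.84 on the ground and 9.87, 10.02, 9.43 and 10.22 in flight. On that probe set the groups overlapped through spaceflight replicate 10, and its log2 difference of 0.58 ± 0.24 was not called (adjusted p = 0.186, limma over 14849 probe sets). With the mean of both probe sets the Ucp3 difference was 0.69 with an adjusted p of 0.0641 (limma), so the call rests on the brighter probe set. It was also lost with a variance trend and robust estimation (adjusted p = 0.0686, limma) and with all 23 arrays in the fit (adjusted p = 0.105, limma). The call stood without any 1 array, at log2 differences from 0.62, without ground AEM replicate 1, to 0.91.

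Ucp1, the heat-producing protein of brown fat, had flight values between 5.68 and 6.04 on all 8 arrays, close to the filter at 5.83, and a log2 difference of -0.13 (adjusted p = 0.46, limma). Slc25a14 and Slc25a30, carriers related in sequence to the uncoupling proteins, had log2 differences of -0.18 and 0.06, neither of them called. Slc25a14 was among the members with an unadjusted p under 0.05.

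The windows upstream of the transcript starts of the 4 carriers called in flight are shown so that their letters can be compared; they are the 250 bases before a start in RefSeq, build GRCm38.p6, written 5′ to 3′ on the gene's strand. The windows are chr7:100472741-100472990 on the plus strand for Ucp3, chr4:149774268-149774517 on the minus strand for Slc25a33, chr2:32424067-32424316 on the minus strand for the Slc25a25 start printed here (1 of 3 listed starts), and chr11:120491587-120491836 on the plus strand for Slc25a10. Capitals mark the letters AGGTCA, a nuclear receptor half-site such as the PPAR family binds, in Ucp3, and TGACGTCA, the cyclic AMP response element, in Slc25a25.
Ucp3: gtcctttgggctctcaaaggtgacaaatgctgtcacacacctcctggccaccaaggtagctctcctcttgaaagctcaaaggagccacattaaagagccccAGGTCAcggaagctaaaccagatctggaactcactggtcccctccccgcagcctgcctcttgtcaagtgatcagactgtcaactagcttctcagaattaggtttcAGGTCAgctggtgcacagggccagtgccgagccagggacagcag
Slc25a33: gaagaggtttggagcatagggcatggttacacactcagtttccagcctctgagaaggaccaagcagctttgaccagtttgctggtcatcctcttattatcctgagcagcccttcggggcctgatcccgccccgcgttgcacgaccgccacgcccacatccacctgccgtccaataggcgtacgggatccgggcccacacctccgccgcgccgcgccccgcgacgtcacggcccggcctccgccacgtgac
Slc25a25: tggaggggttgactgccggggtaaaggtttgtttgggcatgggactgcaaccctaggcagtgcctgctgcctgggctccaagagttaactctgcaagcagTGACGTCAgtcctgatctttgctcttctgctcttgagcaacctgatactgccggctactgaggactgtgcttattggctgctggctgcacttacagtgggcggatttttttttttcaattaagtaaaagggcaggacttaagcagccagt
Slc25a10: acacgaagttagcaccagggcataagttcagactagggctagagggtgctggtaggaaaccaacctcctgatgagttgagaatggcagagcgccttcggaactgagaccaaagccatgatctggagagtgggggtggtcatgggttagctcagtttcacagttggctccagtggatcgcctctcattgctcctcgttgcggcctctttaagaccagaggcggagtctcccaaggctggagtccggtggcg

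AGGTCA stands at positions -149 and -44 from the Ucp3 start, and TGACGTCA at -150 from this Slc25a25 start. The Slc25a25 window printed is the one that held a match. The windows of the other listed Slc25a25 starts held neither TGACGTCA nor any other motif named here. Both strands were searched. AGGTCA occurred in 14.0% of 32851 promoter windows of the same length, and 5 of the 28 members with a window carried it in at least 1 (17.9%, beside 15.8% of 27025 genes): Ucp1, Ucp3, Slc25a39, Slc25a45 and Slc25a47. TGACGTCA, a motif added after the windows had been read, occurred in 1.55% of all windows. It was found in 2 of the 28 members, Slc25a25 and Slc25a36 (7.14%, beside 1.77% of 27025 genes). The PPAR-type direct repeat of AGGTCA spaced by 1 base (0.0335% of all windows), the full palindromic glucocorticoid receptor site (0.00913%) and the NRF-1 palindrome (0.782%) had no match in any member's window. The glucocorticoid half-site TGTTCT, found in 16.1% of all windows, matched in 2 of the 28 members, Slc25a17 and Slc25a45 (7.14%, beside 18.2% of genes). AGGTCA is also part of the direct repeat, and TGTTCT of the palindrome, and a match describes these letters only.

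**Figure D2:**
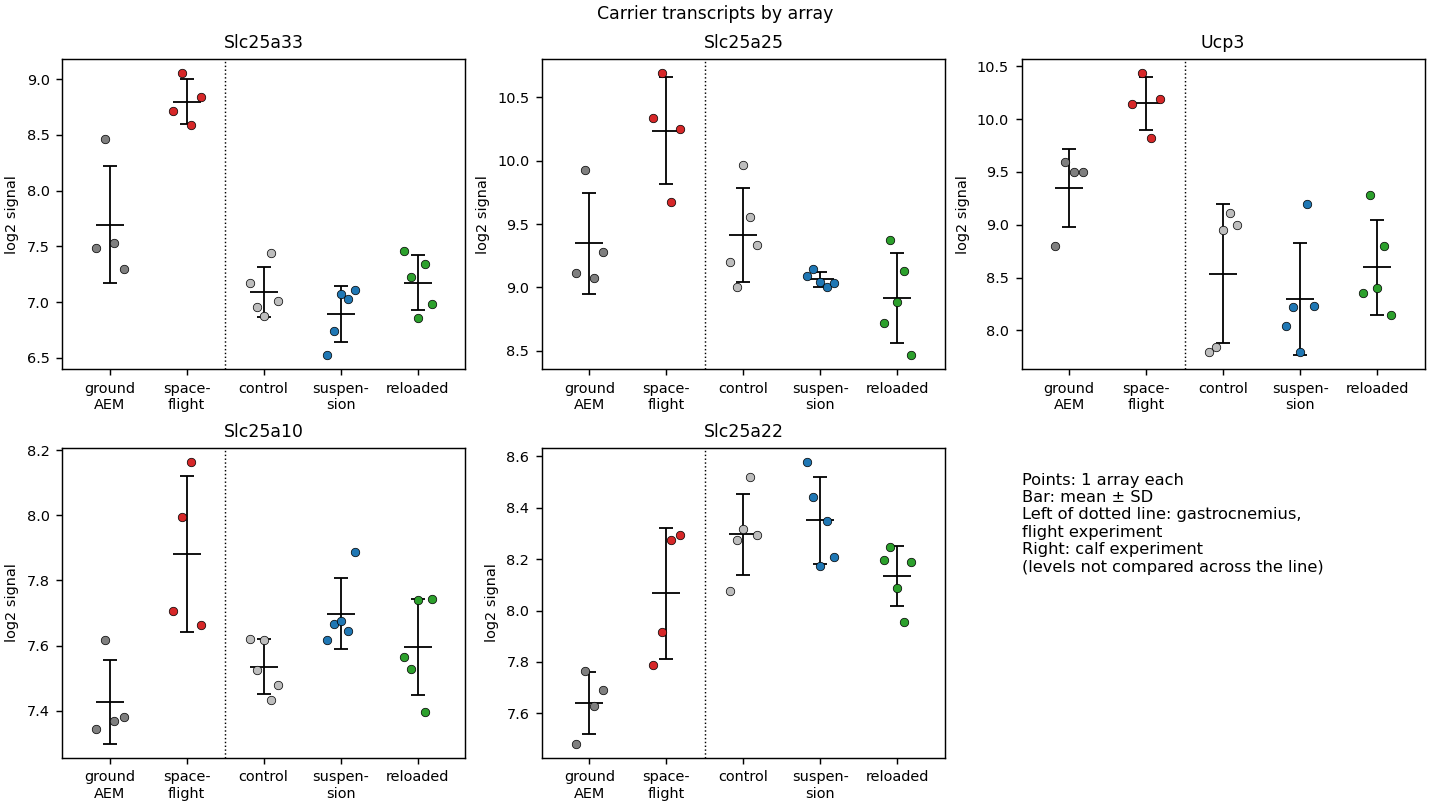
Log2 signal (vertical axes) of Slc25a33, Slc25a25, Ucp3, Slc25a10 and Slc25a22 on each array, with the group mean and SD as bars; the dotted line separates the flight from the calf experiment, between which levels were not compared. Slc25a33 averaged 7.69 in ground AEM and 8.80 in spaceflight, and ground AEM replicate 2 (8.47) stands well above the other 3 ground samples.

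The nucleotide, phosphate and cofactor carriers held the largest flight increases: 2 of 11 tested members rose and the other 9 lay between -0.13 and 0.17. Slc25a33 carries pyrimidine nucleotides, the building blocks of mitochondrial DNA and RNA, into the matrix. Its log2 signal was 7.49, 8.47, 7.53 and 7.29 in ground AEM replicates 1 to 4, and 8.72, 9.05, 8.59 and 8.84 in spaceflight replicates 8 to 11. The groups did not overlap; ground AEM replicate 2 was the highest ground sample and lay just below the lowest flown sample, spaceflight replicate 10. The means of 7.69 ± 0.53 and 8.80 ± 0.20 (SD, n = 4 each) gave a log2 difference of 1.10 ± 0.20 (SE), a 2.15-fold increase with an adjusted p of 0.00628 (limma). The call was lost with the variance trend and robust estimation (adjusted p = 0.0548, limma) and stood in the other 17 alternatives, at 1.36 without ground AEM replicate 2. The other pyrimidine nucleotide carrier measured, Slc25a36, had a log2 difference of 0.02 in flight.

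Slc25a25 is a calcium-regulated carrier that exchanges ATP-Mg for phosphate and so sets the adenine nucleotide pool of the matrix. It had 9.12, 9.93, 9.07 and 9.28 in ground AEM replicates 1 to 4, and 10.34, 10.69, 9.68 and 10.25 in spaceflight replicates 8 to 11. Here the groups overlapped: ground AEM replicate 2 (9.93) was above spaceflight replicate 10 (9.68). The means were 9.35 ± 0.40 and 10.24 ± 0.42 (SD, n = 4 each), a log2 difference of 0.89 ± 0.21 (SE; 1.85-fold; adjusted p = 0.0254, limma). The call was lost in 8 of 18 alternatives: the variance trend with robust estimation (adjusted p = 0.137, limma), array range as a covariate (adjusted p = 0.0676, limma), and leaving out ground AEM replicate 1 (0.81), 3 (0.80) or 4 (0.87) or spaceflight replicate 8 (0.86), 9 (0.74) or 11 (0.89), with adjusted p between 0.0583 and 0.0807 in those 6 fits (limma). Slc25a23, which belongs to the same ATP-Mg/phosphate subfamily, had a log2 difference of 0.05. Ground AEM replicate 2 was the highest of its group in 14 of the 33 members, beside 8, 10 and 1 for the other 3 ground samples; its part in the results was measured by leaving it out, without which Slc25a25 stood at 1.08 (adjusted p = 0.00451, limma).

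The carriers on which ATP export depends were not called in flight. Slc25a4, the ADP/ATP carrier of heart and skeletal muscle, had 13.27, 13.40, 13.27 and 13.23 on the ground and 13.14, 13.22, 13.14 and 13.16 in flight. Slc25a3, the phosphate carrier, had 12.61, 12.64, 12.75 and 12.70 on the ground and 12.57, 12.55, 12.60 and 12.56 in flight. On the probe sets used, both had every flown sample below every ground sample. The log2 differences of -0.12 for Slc25a4 (adjusted p = 0.366, limma) and -0.10 for Slc25a3 (adjusted p = 0.45, limma) were not called. The dimmer Slc25a4 probe sets gave -0.09, -0.02 and 0.14, also not called (adjusted p from 0.442 to 0.943, limma). Non-overlapping groups occurred in 5 members on the higher side (Slc25a33, Ucp3, Slc25a10, Slc25a22 and Slc25a42, beside 6.38% of all genes). On the lower side they occurred in 2, Slc25a4 and Slc25a3 (beside 6% of all genes). Slc25a5, the ADP/ATP carrier found in most tissues, had 9.42, 9.37, 9.46 and 9.19 on the ground and 9.64, 9.56, 9.50 and 9.39 in flight. Its groups overlapped and its log2 difference of 0.16 was not called (adjusted p = 0.323, limma). The suffix of its probe set marks probes that can also match related transcripts, and 5 other tested Slc25a5 probe sets gave values between -0.02 and 0.13. The coenzyme A carrier Slc25a42 had a log2 difference of 0.17 without overlap (adjusted p = 0.221, limma), and the NAD carrier Slc25a51 and the S-adenosylmethionine carrier Slc25a26 had -0.13 and -0.02.

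Of the 4 carriers of organic acids and glutamate, 1 was called in flight. Slc25a10 exchanges malate and succinate for phosphate and is known to be abundant in white fat. Its log2 signal was 7.34, 7.62, 7.37 and 7.38 in ground AEM replicates 1 to 4, and 7.71, 7.99, 8.16 and 7.66 in spaceflight replicates 8 to 11. Every flown sample lay above every ground sample, by 0.46 ± 0.11 (SE; adjusted p = 0.0343, limma) between means of 7.43 ± 0.13 and 7.88 ± 0.24 (SD, n = 4 each). The second Slc25a10 probe set gave the opposite sign: 6.51, 6.63, 6.58 and 6.55 on the ground against 6.27, 6.23, 6.45 and 6.53 in flight. There the groups overlapped through spaceflight replicate 11, and the log2 difference of -0.20 ± 0.09 was not called (adjusted p = 0.205, limma over 14849 probe sets). The mean of both probe sets gave 0.13 (adjusted p = 0.397, limma), so the direction of Slc25a10 depends on the probe set. The call on the brighter probe set was also lost with array range as a covariate (0.42) and without ground AEM replicate 1 (0.43), 3 (0.44) or 4 (0.44) or spaceflight replicate 9 (0.42) or 10 (0.36).

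**Figure D3:**
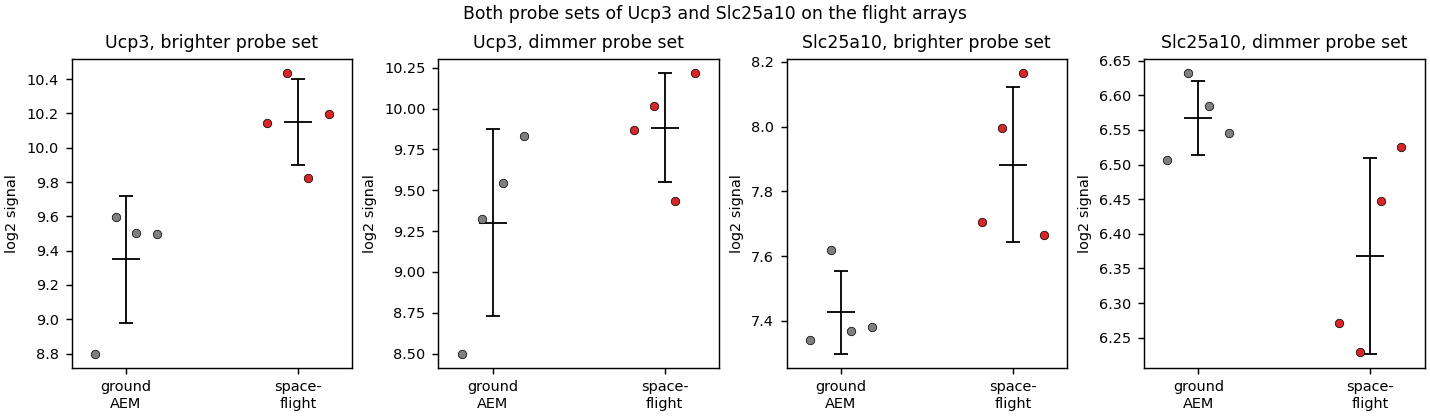
Log2 signal of the brighter and the dimmer probe set of Ucp3 and of Slc25a10 on the 8 flight arrays, with the group mean and SD as bars. Both Ucp3 probe sets have the higher mean in spaceflight (differences of 0.80 and 0.58), whereas for Slc25a10 the brighter probe set is higher (0.46) and the dimmer one lower (-0.20) in spaceflight.

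Slc25a22, a glutamate carrier, had 7.48, 7.76, 7.63 and 7.69 on the ground and 7.79, 7.92, 8.27 and 8.29 in flight, without overlap between the groups. Its log2 difference of 0.43 ± 0.12 was not called (adjusted p = 0.0501, limma). It passed the threshold in 6 of 18 alternatives, with adjusted p from 0.0147 to 0.0494 (limma), and stayed uncalled in the others. When 1 array was left out the difference ran from 0.35 to 0.52. Its adjusted p then reached 0.137 (limma), without spaceflight replicate 10. The oxoglutarate/malate carrier Slc25a11 and the aspartate/glutamate carrier Slc25a13, parts of the malate-aspartate shuttle, had -0.16 and 0.01 and were not called.

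None of the 8 tested members grouped here with the carriers of carnitine, amino acids and ornithine was called in flight (limma). Their log2 differences ran from -0.21 for Slc25a48 to 0.12 for the branched-chain amino acid carrier Slc25a44. The dimmer Slc25a44 probe sets had the opposite sign, at -0.22 and -0.05. Neither was called (adjusted p = 0.171 and 0.815, limma over 14849 probe sets), so the direction of Slc25a44 depends on the probe set. Slc25a20, the carnitine/acylcarnitine carrier through which long-chain fatty acids enter the matrix, had 8.95, 8.99, 9.28 and 8.93 on the ground and 8.96, 8.95, 9.10 and 8.87 in flight. The groups overlapped almost fully, with a log2 difference of -0.06 ± 0.09 (adjusted p = 0.747, limma). The ornithine carrier Slc25a15, the glycine carrier Slc25a38 and the basic amino acid carrier Slc25a29 had -0.14, 0.00 and 0.06. The dimmer Slc25a29 probe sets gave 0.23, -0.02, 0.22 and 0.09, and none of them was called (adjusted p from 0.121 to 0.886, limma over 14849 probe sets).

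Of the iron and glutathione carriers, 0 of 3 were called in flight. The mitochondrial iron importers Slc25a28 (mitoferrin-2) and Slc25a37 (mitoferrin-1) had log2 differences of 0.27 (adjusted p = 0.082, limma) and 0.29 (adjusted p = 0.256, limma), and the glutathione carrier Slc25a39 had -0.13. For Slc25a28, 3 of the 4 flown samples (8.72, 8.63 and 8.65) were above all ground samples, of which the highest was 8.49. The members with other or unsettled substrates, Slc25a35, Slc25a46 and Slc25a53, had 0.15, 0.09 and 0.08.

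Other genes of mitochondrial membrane transport moved in both directions in flight: of 15 tested, 2 rose and 2 fell. Those that rose were Sfxn2 (0.39), an inner membrane protein of the sideroflexin family, and Tspo (0.34), the translocator protein of the outer membrane. Those that fell were Letm1 (-0.33), an ion exchanger of the inner membrane, and Ckmt2 (-0.37), the mitochondrial creatine kinase of muscle. The list's median was -0.04, beside -0.01 over all genes tested. Of 19 tested fatty acid responsive genes and regulators, Angptl4 (0.70), a secreted inhibitor of lipoprotein lipase, rose. The receptor Ppara (-0.82) and the coactivator Ppargc1a (-1.23), both regulators of fatty acid oxidation genes, fell. Pdk4, an inhibitor of pyruvate oxidation that responds to fatty acids, was at 0.10 (adjusted p = 0.787, limma). Of 17 genes chosen to stand for mitochondrial content (citrate cycle, respiratory chain and mitochondrial DNA upkeep), 0 were called in any comparison of 2 groups, and their median in flight was -0.10.

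Markers of fat cells differed between the flight groups: 4 of 7 rose and 0 fell, with a median of 0.63. Their mean per array ran from 7.93 to 8.16 on the ground and from 8.61 to 9.00 in flight. Adipoq, the adipocyte hormone adiponectin, had 8.59, 8.08, 8.62 and 8.57 on the ground and 10.08, 9.68, 9.95 and 9.92 in flight. Cidec, a lipid droplet protein of white fat, was at 4.94 to 5.15 on the ground, below the filter value of 5.83, and at 6.25 to 7.34 in flight. All 7 markers passed the filter, and the part of fat cells in the flight values of Slc25a10, Ucp3 and the other carriers was not tested. Of the 5 brown fat markers with a probe set, Ucp1 included, Cidea and Zic1 lay below the filter and 0 of the 3 tested were called. Of macrophage and leukocyte markers, 0 of 8 were called. Of 8 slow fibre markers 1 fell, Myl2 (-0.42), and the list median was -0.03. Of 6 endothelial markers 1 fell, Kdr (-0.32), while the list median was 0.09. Of the 2 erythroid markers tested, Alas2 (-0.28) fell, and their median was -0.14.

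In the calf experiment the comparisons ask what 12 days without weight bearing, and then 3.5 hours of reloading, did to the same transcripts. No carrier was called: 0 of 33 in suspension against control (0.372% of all genes were called), 0 of 33 in reloaded against suspension (0.58%) and 0 of 33 in reloaded against control (0.318%; limma), and the same held under each alternative run. At an unadjusted p under 0.05 there were 5, 6 and 5 of the 33 members, beside 8.65%, 9.14% and 7.27% of all genes. The median log2 differences over all 33 members were -0.05, -0.05 and -0.03, where the medians of all genes were 0.00, -0.02 and -0.02.

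The ATP-Mg/phosphate carrier Slc25a25 had the lowest log2 difference against control of any member in both suspended and reloaded muscle. In control replicates 1, 2, 19, 21 and 22 it was 9.20, 9.00, 9.97, 9.55 and 9.34. In suspension replicates 8, 9, 11, 25 and 30 it was 9.09, 9.15, 9.04, 9.00 and 9.03, and in reloaded replicates 14, 15, 16, 18 and 33 it was 8.72, 9.38, 8.88, 9.13 and 8.47. The 5 suspended samples lay within a narrow band (SD 0.06), whereas the controls (SD 0.37) and the reloaded samples (SD 0.35) were spread and overlapped it. The log2 differences were -0.35 ± 0.16 in suspension and -0.50 ± 0.16 in reloaded muscle against control (SE; adjusted p = 0.522 and 0.313, limma).

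Slc25a33 had 7.18, 6.96, 6.88, 7.44 and 7.01 in control, 6.53, 6.74, 7.07, 7.03 and 7.11 in suspended, and 7.46, 7.22, 6.86, 7.34 and 6.99 in reloaded muscle. All 3 groups overlapped, with differences of -0.20 for suspension against control and 0.28 for reloaded against suspension. Slc25a36, the other pyrimidine nucleotide carrier, had -0.27 and 0.35 in the same comparisons, and the second of these, with an unadjusted p of 0.00806, was the highest member value after reloading (adjusted p = 0.332, limma). Slc25a10 had 7.62, 7.52, 7.62, 7.43 and 7.48 in control, 7.62, 7.67, 7.67, 7.64 and 7.89 in suspended, and 7.57, 7.53, 7.74, 7.40 and 7.74 in reloaded muscle. The suspended samples were at the upper end of the controls or above, with a log2 difference of 0.16 (adjusted p = 0.576, limma). Slc25a22 had 8.08, 8.28, 8.32, 8.52 and 8.29 in control, 8.58, 8.44, 8.17, 8.35 and 8.21 in suspended, and 8.20, 8.25, 8.09, 7.96 and 8.19 in reloaded muscle. Its groups overlapped, and the difference of reloaded against suspended muscle was -0.22 (adjusted p = 0.479, limma).

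Ucp3 varied more within the calf groups than between them. Its log2 signal was 7.79, 7.84, 8.95, 9.11 and 9.00 in control replicates 1, 2, 19, 21 and 22, and 8.04, 8.22, 7.80, 9.19 and 8.23 in suspension replicates 8, 9, 11, 25 and 30. In reloaded replicates 14, 15, 16, 18 and 33 it was 8.35, 9.29, 8.40, 8.80 and 8.14. Control replicates 1 and 2 lay more than 1 log2 unit below the other 3 controls, as they also did on the dimmer probe set (7.51 and 7.63 against 9.17, 9.24 and 8.97). The differences were -0.24 ± 0.28 for suspension against control and 0.30 ± 0.28 for reloaded against suspension, neither of them called (adjusted p = 0.846 and 0.744, limma). Pdk4, chosen for this display after its values had been seen, was also lowest among the controls on replicates 1 and 2 (11.08 and 11.02, against 11.73, 11.64 and 11.98).

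Ucp1 was uneven across the calf arrays too. It ran from 6.14 to 6.54 in the 5 controls, and from 6.05 to 6.28 in 4 of the reloaded samples. Reloaded replicate 16 reached 7.80, and suspension replicates 8 and 11 reached 7.27 and 7.23, above the other 3 suspended samples (6.61, 6.14 and 6.51). Suspension replicate 8 was also the calf array with the narrowest range (2.209) and the lowest median correlation with other arrays (0.985). The differences were 0.38 ± 0.26 for suspension against control and -0.24 ± 0.26 for reloaded against suspension (SE; adjusted p = 0.71 and 0.777, limma). Without reloaded replicate 16, reloaded muscle stood at -0.18 against control in place of 0.14. The brown fat marker Cidea was highest on reloaded replicate 16 (6.05), suspension replicate 11 (6.04) and suspension replicate 8 (5.67). Control replicate 21 was close behind (5.64), with a Ucp1 of 6.14, the lowest of the controls. Suspension replicate 9 had the lowest Cidea of the calf arrays (4.94), with a Ucp1 of 6.61, above all controls. Cidea lay below the filter for testing, and other brown fat markers are not shown by array. The part of brown fat cells in these values was not tested, and Ucp1 and Cidea were set side by side after their values had been seen.

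**Figure D4:**
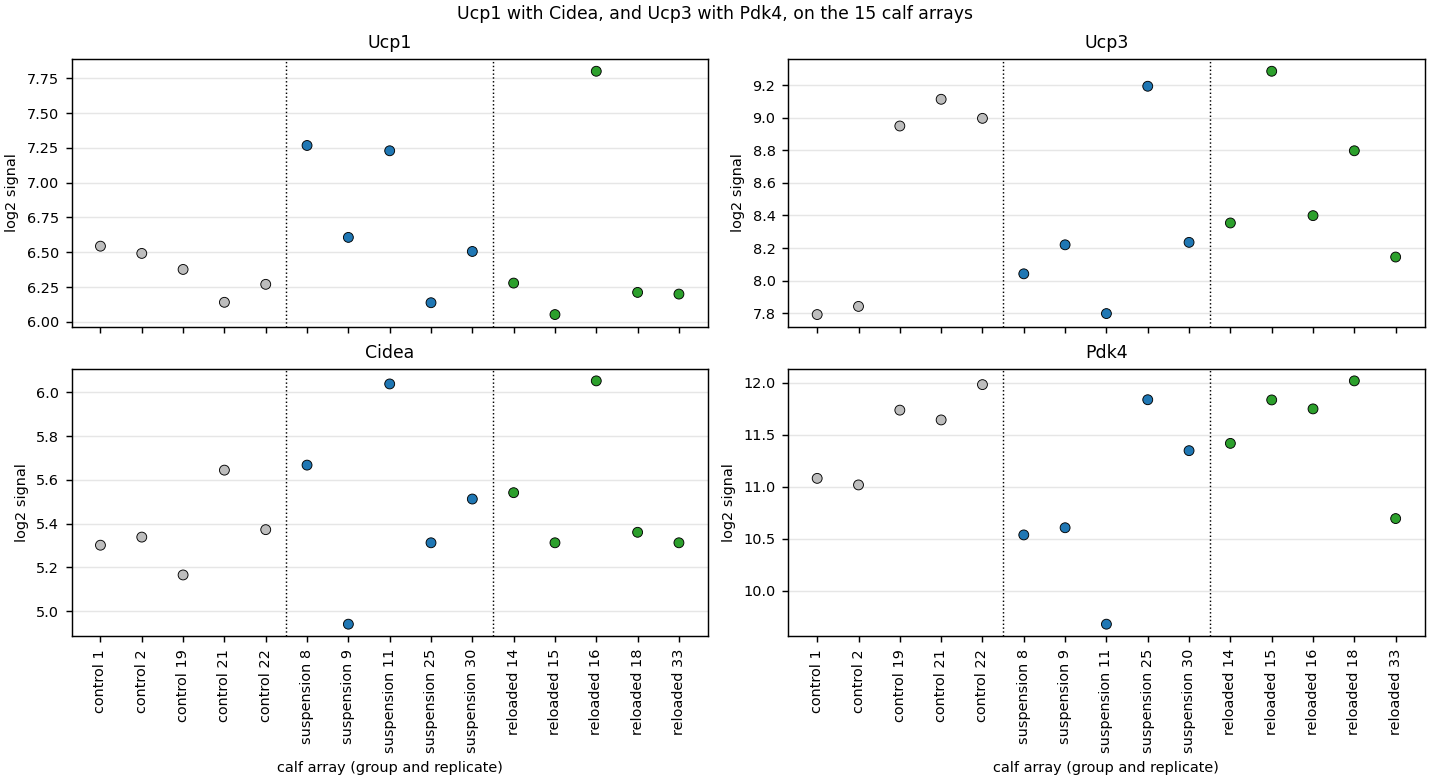
Log2 signal (vertical axes) of Ucp1 with Cidea and of Ucp3 with Pdk4 on each of the 15 calf arrays (horizontal axis), with dotted lines between control, suspension and reloaded. Ucp1 and Cidea are both highest on reloaded replicate 16 (7.80 and 6.05). Within their groups, Ucp3 and Pdk4 are both lowest on control replicates 1 and 2 and on suspension replicate 11. Suspension replicates 8 and 9 and reloaded replicate 33 have lower Pdk4 (10.54, 10.61 and 10.69) than those controls, with higher Ucp3 (8.04, 8.22 and 8.14).

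The ADP/ATP carriers were not called in the calf muscle. Slc25a4 had 13.15, 13.11, 13.18, 13.11 and 13.18 in control, 12.94, 13.13, 13.23, 13.20 and 13.17 in suspended, and 13.16, 13.19, 13.19, 13.14 and 13.14 in reloaded muscle. Suspension replicate 8 was its lowest sample and the groups overlapped, with differences between -0.01 and 0.03. Slc25a5 had 9.21, 9.20, 9.15, 8.88 and 9.33 in control, 8.88, 8.75, 9.07, 9.06 and 9.07 in suspended, and 9.12, 9.12, 8.85, 9.17 and 9.11 in reloaded muscle. The groups overlapped, and the difference of suspended muscle from control was -0.19 (adjusted p = 0.576, limma). The oxoglutarate/malate carrier Slc25a11 had -0.26 in suspension against control, where suspension replicates 8 and 9 (10.51 and 10.50) lay below the other 3 suspended samples (11.03, 10.98 and 10.90). Suspension replicates 8 and 9 were also the calf arrays with the narrowest ranges of log2 values.

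Members whose groups did not overlap were rare in the calf muscle. In suspension against control it was 1 member, Slc25a39, the glutathione carrier, with 10.11, 10.07, 10.07, 10.20 and 10.19 in control and 9.98, 9.88, 9.98, 9.99 and 9.98 after suspension. The log2 difference was -0.16 (adjusted p = 0.565, limma), and 1.34% of all genes had non-overlapping groups on the lower side. In reloaded against control it was Slc25a20, with 8.86, 9.02, 8.76, 8.89 and 8.90 in control and 8.59, 8.58, 8.48, 8.75 and 8.66 after reloading, beside 1.7% of all genes on the lower side. In suspended muscle Slc25a20 had 8.75, 8.89, 8.64, 8.83 and 8.33, overlapping both other groups. Its log2 differences against control were -0.20 in suspension and -0.28 in reloaded muscle (adjusted p = 0.547 and 0.382, limma). In reloaded against suspension, 0 members had non-overlapping groups, beside 1.46% of all genes, and the lowest value was -0.30 for Slc25a35.

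Of the other mitochondrial transport genes, 0 of 15 were called in any of the 3 calf comparisons. Of the fatty acid responsive genes, Fabp3, the fatty acid binding protein of muscle, fell in suspension (-1.03) and was also lower in reloaded muscle against control (-0.75, called). Ppargc1a rose on reloading (1.29), from 6.61 to 7.12 in suspended samples to 6.89 to 9.41 in reloaded ones. Of the 7 adipocyte markers 0 were called in the calf comparisons, with medians of 0.53, -0.28 and 0.24. In suspension against control the slow fibre markers Myl3 (-0.47) and Casq2 (-0.64) fell and the Schwann cell marker Mbp (1.87) rose, and their part in the carrier values was not tested.

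Whether the flight effect on a carrier differed from its suspension effect was tested in 1 fit over all 23 arrays, with each effect taken within its own experiment. Of 33 members, 2 had a larger flight effect and 0 a smaller one, beside 0.865% of all genes called on the larger side and 1.27% in either direction. For Slc25a33 the flight effect of 1.10 and the suspension effect of -0.20 differed by 1.30 ± 0.25 (SE; adjusted p = 0.00415, limma). For Slc25a25 the effects of 0.89 and -0.35 differed by 1.24 ± 0.27 (adjusted p = 0.0158, limma), a call lost with the variance trend and robust estimation (adjusted p = 0.0582, limma). For Ucp3 the difference of 1.04 ± 0.39 was not called (adjusted p = 0.236, limma), nor was that of 0.29 for Slc25a10 (adjusted p = 0.385, limma).

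**Figure D5:**
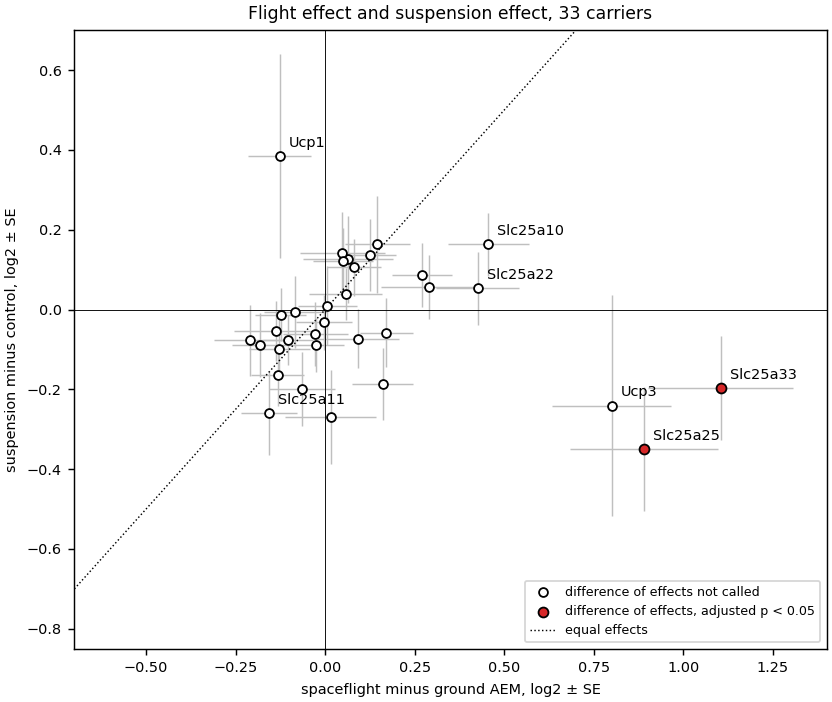
Log2 difference of spaceflight against ground AEM (horizontal axis) and of suspension against control (vertical axis), each with its standard error, for the 33 tested carriers; the dotted line marks equal effects, and filled points passed the test of the difference. Slc25a33 (1.10 and -0.20) and Slc25a25 (0.89 and -0.35) are filled and lie far to the right of the line, and Ucp3 (0.80 and -0.24) lies near them without passing.

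Against the effect of suspension followed by reloading, taken relative to the same controls, 3 of 33 members had a larger flight effect, beside 1.61% of all genes on the larger side and 2.74% in either direction. Slc25a25 differed by 1.39 ± 0.27 (adjusted p = 0.00347, limma), Slc25a33 by 1.02 ± 0.25 (adjusted p = 0.0188, limma) and Slc25a22 by 0.59 ± 0.15 (adjusted p = 0.0282, limma). The Slc25a33 call was lost without ground AEM replicate 4 (0.89) or spaceflight replicate 9 (0.94). The Slc25a22 call was lost with quantile normalization (0.56) and without control replicate 21 (0.53), reloaded replicate 18 (0.54), ground AEM replicate 1 (0.53) or 3 (0.58), or spaceflight replicate 10 (0.52) or 11 (0.51). Ucp3 differed by 0.74 and was not called (adjusted p = 0.408, limma). The comparisons of the flight effect with both calf effects share the flight and control arrays, and the flight experiment used gastrocnemius where the calf experiment used calf muscle, so muscle sample and treatment cannot be told apart in them.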

How the data were processed

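Each of the 23 samples is 1 Affymetrix array of bulk mouse muscle. The table deposited by the authors holds log2 signals from 2.49 to 14.2. RMA and MAS5 are named in the submitters' processing notes; their roles and versions, and whether the arrays of both experiments were processed together, are not given there. No further normalization was applied. Probe sets were named from GEO's platform annotation, which can be old: of 22690, 64 are controls, 20380 have 1 gene symbol, 691 several and 1555 none. Each gene was represented by its brightest probe set, and genes were tested where log2 signal exceeded 5.83 (the 40th percentile) on at least 4 arrays.

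Groups followed the sample titles. limma 3.58.1 (lmFit and eBayes, two-sided) in R 4.3.3 was fitted to the 8 flight arrays, to the 15 calf arrays, and to all 23 arrays for differences of effects, with Benjamini-Hochberg adjustment over 9133 genes and a call at an adjusted p under 0.05. The fit was checked on simulated data. Every member is named; values on every array are given for members called in any comparison, for Ucp3, Slc25a4, Slc25a5, Slc25a20 and Slc25a25, and other members, Ucp1 among them, by selected values or ranges chosen after they were seen. The members, roles and gene lists were chosen with earlier results of these data known. Alternatives were other filters, probe set rules, normalizations, variance models, array range as a covariate, other arrays in the fit, leaving out each array, and the flight groups exchanged. The labels name no batch, so none could be tested.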

Additional observations from a re-analysis of the deposited data

Results flagged for a closer look

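Of 45 groups of 4 or 5 arrays examined over 9 members, 6 held a sample far from the rest of its group by Dixon's criterion, which chance alone would flag in about 1 of 20 groups. Slc25a10 was high on ground AEM replicate 2 (7.618) and on suspension replicate 30 (7.889). Ucp3 was low on ground AEM replicate 1 (8.799), and Slc25a20 was high on ground AEM replicate 3 (9.278). Slc25a5 was low (8.853) and Ucp1 high (7.80) on reloaded replicate 16.

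The difference between the flight effect and the suspension effect passed its test for Slc25a25 (1.24) and Slc25a33 (1.30). The difference between the flight effect and that of suspension with reloading passed for Slc25a22 (0.59), Slc25a25 (1.39) and Slc25a33 (1.02).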

How the results depend on the processing

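The number of carriers called in flight was 4, and between 2 and 4 when 1 array was left out. With a variance trend and robust estimation it was 2, namely Slc25a10 and Slc25a22. Of the 4 carriers called in flight, Slc25a33, Slc25a25 and Ucp3 were lost in that fit, and Slc25a22 had not been among them. Against suspension, 2 differences of effects became 1 with the trend and robust estimation and stayed at 2 without any 1 array; against suspension with reloading, 3 became 2 to 3 without 1 array. In the calf comparisons 0 carriers were called without any 1 array. Over all genes, 515 flight calls became 311 with array range as a covariate and 283 to 491 without 1 array. The 34 suspension calls became 17 when a gene's probe sets were averaged, 7 without suspension replicates 8 and 9, and 15 to 47 without 1 array; the 53 calls of reloaded against suspension became 39 to 63. The 29 calls of reloaded against control became 88 with array weights, 74 with array range as a covariate, 53 with only the 2 groups fitted, and 20 to 43 without 1 array. The 116 differences of effects against suspension became 78 to 157 without 1 array, and the 250 against suspension with reloading became 436 with array weights and 181 to 298 without 1 array. With spaceflight and ground AEM exchanged, as their descriptions would have it, 529 genes differed against suspension. Slc25a10, Slc25a25 and Slc25a33 then stood at -0.62, -0.54 and -0.91 against suspension. Against suspension with reloading Slc25a10, Slc25a25, Slc25a33 and Slc25a22 stood at -0.51, -0.39, -1.19 and -0.26. With the groups exchanged, Slc25a10 and Slc25a33 were called in both comparisons. Slc25a25 was called in neither (adjusted p = 0.287 and 0.528, limma), and Slc25a22 was not called against suspension with reloading (adjusted p = 0.406, limma). Apart from this exchange the cause of these changes was not tested. A carrier uncalled both here and under an alternative was judged by the size of its move only, so a change of its sign is not listed. Fits that left out ground AEM replicate 2 with spaceflight replicate 10, and suspension replicates 8 and 11 with reloaded replicate 16, were also run after the data were seen and are not used, because those arrays had been picked by their measured carrier values; the first called more carriers in flight with larger increases, and the second made no call for Ucp1. No paired analysis was possible because the groups compared within an experiment share no replicate number. With 4 or 5 arrays a group, small differences were not detectable, and Ucp1 in the flight experiment lay near the filter.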
